A study of Mus musculus with 4 samples.

Results

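The regions described here are open chromatin regions in gene deserts: their midpoint lay over 100 kb from the nearest transcription start site (TSS) of any protein-coding gene and outside every protein-coding gene body (GENCODE M21 basic annotation of the mouse build mm10). Of 121574 listed regions, 18171 (14.9%) met this rule, which uses position alone. Accessibility was read by ATAC-seq, whose enzyme, a transposase, inserts sequencing adapters where DNA is open, in dental mesenchyme of the incisor, the connective tissue inside a tooth that keeps growing. The mice were wild type, of strain C57BL/6 and 4 weeks old, and no treatment was given. All 4 deposited samples were lanes of this 1 group, and their reads stood under 1 shared name. There was therefore 1 library, with no contrast and no spread between replicates, and nothing was tested. Intervals in parentheses are exact 95% intervals, Poisson for counts and densities and binomial for shares, and they cover counting error alone. The number of animals pooled was not given in the sources used.

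Gene deserts are long stretches without protein-coding genes. Those beside developmental regulators often hold enhancers, sequences that act on a promoter over long distances by looping to it, and several such deserts are conserved across vertebrates. Others flank neuronal adhesion genes or gene-poor, AT-rich and repeat-rich sequence. Opened DNA in a desert can also mark the start of a long noncoding RNA gene, an insulator site bound by CTCF, or a copy of another sequence. The region nearest to a gene need not regulate that gene.

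Promoters of the labelled cell type were open. Summed reads at promoters of 10 dental mesenchyme markers had a median of 99.5, with 164 at Msx1, 138 at Pax9, 134 at Msx2 and 0 at Barx1. All 6 leukocyte markers were at 0. Reads were also present at other cell types: 7 dental epithelium markers ranged from 0 to 181 (median 25), with Amelx at 0, and 5 endothelial markers from 0 to 54 (median 13), with Pecam1 at 0. The part of such cells in the values below was not tested.

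The first 3 sequences are the central 200 bases of the largest region in 3 of the gaps with the most desert regions, shown because they hold letters counted below. Capitals mark TAATTA (the core of many homeodomain sites), TGTGGTT (RUNX), GGAATG (TEAD) and the CTCF consensus, read on both strands.
Cdh11 to Cdh5 gap, chr8:102983650-102983849, plus strand: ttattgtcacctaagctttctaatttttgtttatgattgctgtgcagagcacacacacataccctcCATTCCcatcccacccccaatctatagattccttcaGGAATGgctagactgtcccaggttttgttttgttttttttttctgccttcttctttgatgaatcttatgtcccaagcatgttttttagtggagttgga
Bcl11a to 5730522E02Rik gap, chr11:24643971-24644170, plus strand: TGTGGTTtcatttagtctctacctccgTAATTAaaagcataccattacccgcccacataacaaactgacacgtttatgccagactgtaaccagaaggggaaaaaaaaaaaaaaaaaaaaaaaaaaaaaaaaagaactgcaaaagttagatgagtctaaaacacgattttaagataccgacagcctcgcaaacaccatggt
Nmbr to Cited2 gap, chr10:15300160-15300359, plus strand: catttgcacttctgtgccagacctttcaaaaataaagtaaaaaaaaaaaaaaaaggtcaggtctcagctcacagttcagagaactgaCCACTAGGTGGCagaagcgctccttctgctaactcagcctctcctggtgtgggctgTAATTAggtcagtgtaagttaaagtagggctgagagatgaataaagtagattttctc
The next 4 come from the cluster with the most desert regions, inside the long noncoding gene Firre on chromosome X, which was chosen after its values were seen. Each is 60 bases around the 12 letters that recur most often among those regions, in capitals, and is named by its distance from the Firre start.
Firre 62.8 kb, chrX:50572334-50572393, plus strand: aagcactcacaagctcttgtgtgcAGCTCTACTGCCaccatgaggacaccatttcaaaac
Firre 20.5 kb, chrX:50614500-50614559, plus strand: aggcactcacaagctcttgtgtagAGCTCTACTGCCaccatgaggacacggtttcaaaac
Firre 32.5 kb, chrX:50602513-50602572, plus strand: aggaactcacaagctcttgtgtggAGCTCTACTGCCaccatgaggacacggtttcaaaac
Firre 23.2 kb, chrX:50611841-50611900, plus strand: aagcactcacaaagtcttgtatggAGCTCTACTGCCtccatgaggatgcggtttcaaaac
All coordinates are mm10. The 60-base stretches are alike well beyond the capitals, and their regions had 102, 88, 80 and 75 reads.

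Desert regions were sparse but about as wide as other regions away from promoters. Desert sequence made up 864.6 Mb, 32.7% of the known bases, and held 21.02 regions per Mb (20.7 to 21.3). Intergenic sequence within 100 kb of a TSS held 42.3 per Mb (41.9 to 42.8), gene bodies 48.1 (47.7 to 48.5) and promoters, within 1 kb of a TSS, 453.9 (448.2 to 459.6). The 18171 regions covered 0.605% of the desert sequence. Their median width was 248 bases, against 251 in intergenic regions near genes, 247 in gene bodies and 380 at promoters. The desert regions held 204780 reads, 8.91% of the reads in regions (8.87% to 8.95%). Counts ran from 0 to 10649 with a median of 6 (quartiles 2 and 12), against medians of 7 in intergenic regions near genes, 6 in gene bodies and 14 at promoters. No reads were counted in 1191 (6.55%), at least 10 in 5837 (32.1%) and at least 100 in 86. Median GC was 46.3%, although desert sequence as a whole had 39.4%, and the median region was 7.11% repeat, although desert sequence as a whole was 43.5%. The median repeat share was similar in intergenic regions near genes (6.75%) and in gene bodies (5.84%). CpG-rich sequence (at least 200 bases, 50% GC and 0.6 of the CpG count its bases allow) made up 1.13% of desert regions and 54.5% of promoter regions. It made up 3.83% of intergenic regions near genes and 3.12% of gene body regions.

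Desert regions grew rarer with distance from genes, but those present were read as often. From 100 to 150 kb the density was 34.1 per Mb (33.13 to 35.04), from 200 to 300 kb it was 25.9 (25.1 to 26.7), from 500 to 1000 kb it was 10.2 (9.76 to 10.7), and beyond 1000 kb it was 3.36 (2.97 to 3.78). Median reads were 6 in the 4 nearer bins and 5 in the 2 farther ones. The share with at least 10 reads stayed between 30.4% and 33.5%. The 10 kb just under the threshold held 36.7 regions per Mb, and the nearest regions on either side lay at 99.986 and 100.017 kb. The median distance was 218.5 kb (quartiles 145.7 and 349.0), and the farthest region lay 2313.8 kb from the TSS of Cntnap5b, a neuronal adhesion gene.

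**Figure D1:**
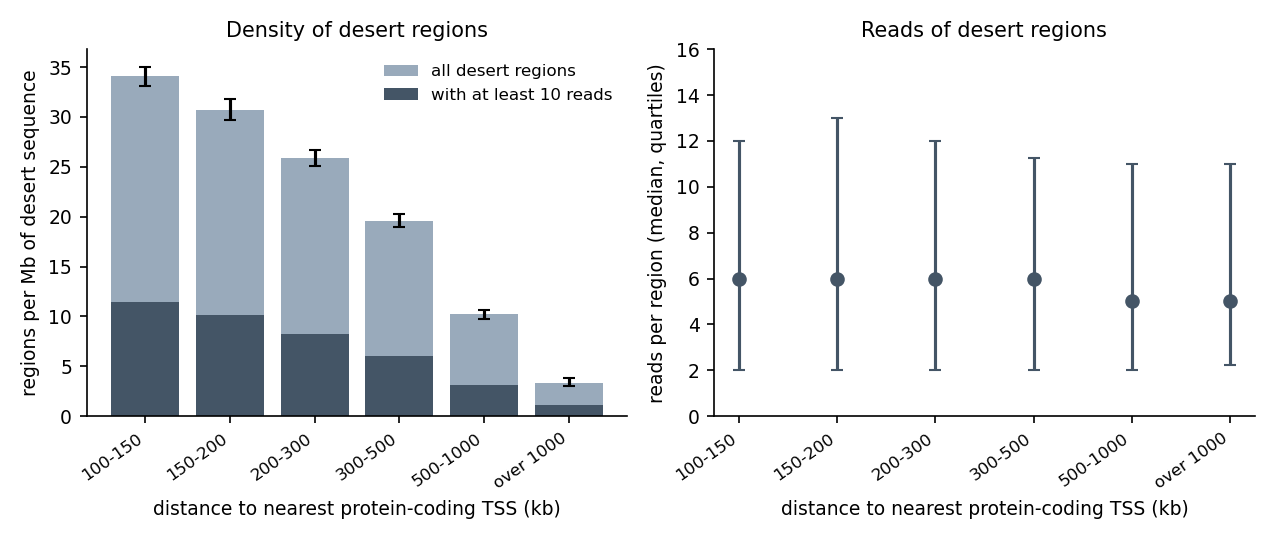
Left, desert regions per Mb of desert sequence by distance to the nearest protein-coding TSS in kb, all (light bars, with exact 95% Poisson intervals) and with at least 10 reads (dark bars in front). Right, median reads per region with quartiles in the same bins; density falls from 34.1 to 3.36 per Mb while the median stays at 5 or 6 reads.

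The chromosomes were unequal. Autosomes held 23.99 desert regions per Mb (23.6 to 24.3), from 17.3 on chromosome 19 to 34.7 (32.9 to 36.6) on chromosome 13. Chromosome X held 4.54 per Mb (4.01 to 5.12). Chromosome Y held 0 regions in 59.5 Mb, which allows up to 0.062 per Mb. Its named deserts were over 96% repeat, where short reads seldom map to 1 place. The treatment of reads that map to several places was not given in the sources used.

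Desert sequence fell into 2094 gaps between neighbouring protein-coding genes, over which the regions were unevenly spread. No region lay in 592 of them, with 117.4 Mb of desert sequence, which includes the 59.5 Mb of chromosome Y. In 225 gaps (10.7%) with 26.0% of the desert sequence lay 50% of the regions. Among 538 gaps with at least 500 kb of desert sequence the median was 11.1 per Mb (quartiles 1.74 and 29.8). In 72 of these 538 the density was at least 2 times the mean, and these held 18.5% of all desert regions in 6.31% of the desert sequence.

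Gaps of higher density also had more GC and fewer repeats. When gaps were ordered by GC and divided into 5 classes of about equal desert length, without chromosome Y, the density rose from 4.47 to 10.3, 16.7, 28.2 and 53.0 per Mb. Ordered by repeat content, it fell from 54.2 to 5.38 per Mb. Ordered by length, the class of the shortest gaps held 39.7 per Mb and that of the longest 8.44. The ratio of a gap's density to that of its GC class is therefore given below. For the 10 gaps with the most regions it ran from 1.84 to 3.51, and for the 10 densest from 1.64 to 2.13. These gaps were chosen by their counts or densities, so a density above that of their class largely follows from the choice. The 10 densest all lay in the class with the most GC, which ran from 41.5% to 61.9%. Differences in GC within a class were not taken into account.

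**Figure D2:**
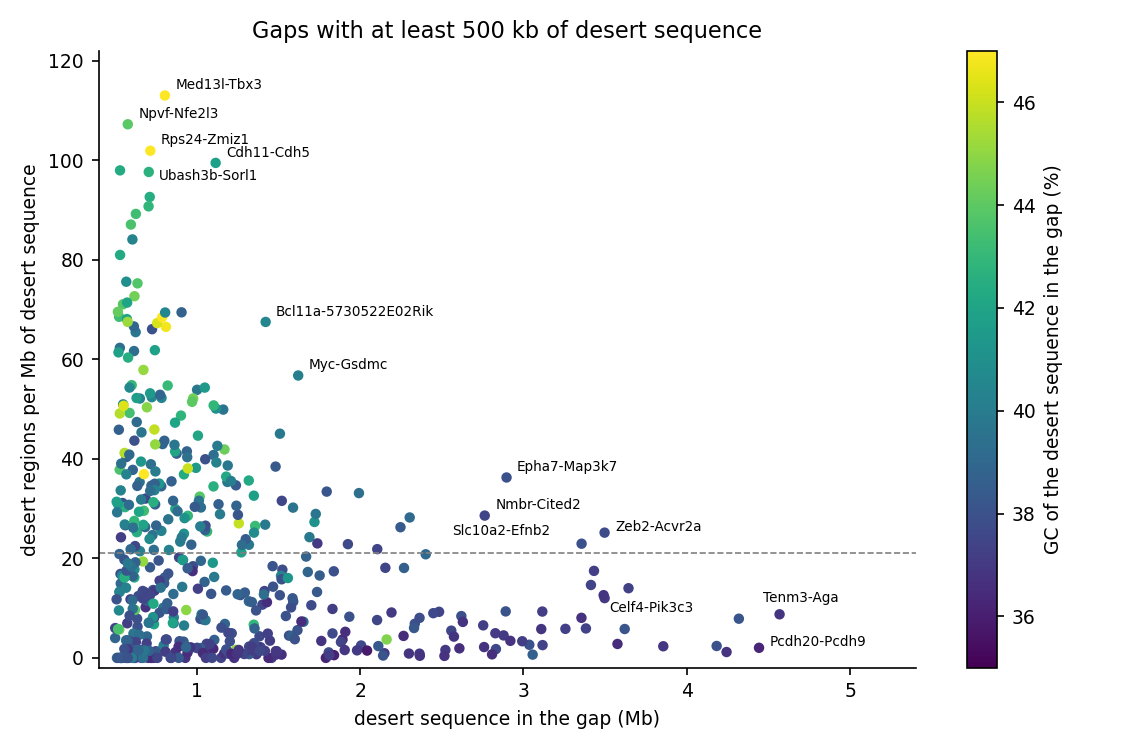
Desert regions per Mb (vertical axis) against Mb of desert sequence (horizontal axis) for gaps with at least 500 kb of it, chromosome Y left out; colour is GC in percent, clipped at the ends of the scale, and the dashed line is the mean of 21.02 per Mb. The densest gaps are short and GC-rich, while Epha7 to Map3k7, Nmbr to Cited2, Slc10a2 to Efnb2 and Zeb2 to Acvr2a lie above the mean with 2.76 to 3.50 Mb each.

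The gap with the most desert regions lay between the cadherin genes Cdh11, a mesenchymal adhesion molecule, and Cdh5, the endothelial one. It held 111 regions in 1.12 Mb of desert sequence on chromosome 8, or 99.5 per Mb (81.8 to 119.8), 1.88 times its GC class. Its regions had 0 to 195 reads (median 6) and 1793 in all. The largest, the first sequence above, lies 198.1 kb from Cdh11 and had 195 reads (168.6 to 224.4). By nearest TSS, 51 of the 111 belonged to Cdh11 and 60 to Cdh5, whose own promoter had 13 reads.

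The densest gap had Tbx3 at 1 end. The gap between Med13l and Tbx3, a T-box factor of limb and mammary development, held 91 regions, or 113.0 per Mb (91.0 to 138.8), the highest of the 538 gaps and 2.13 times its GC class. By nearest TSS, 46 of the 91 belonged to Med13l and 45 to Tbx3. The largest, 163.0 kb from Tbx3, had 116 reads. The gap from Rps24 to Zmiz1, a transcriptional coactivator gene, held 73 regions (101.9 per Mb, 79.9 to 128.1), and that from Ubash3b to the sorting receptor gene Sorl1 held 69 (97.6 per Mb, 76.0 to 123.6). In the latter, 15 regions lay within 1 kb of a long noncoding TSS, against 1 to 5 in the other 9 gaps with the most regions. The other gaps among the 10 densest, besides these and Cdh11 to Cdh5, were Npvf to Nfe2l3 (107.2 per Mb), Slc7a11 to Noct (98.0), Tnp1 to Tns1 (92.6), Meis1 to Spred2 (90.7), Med10 to Ice1 (89.2) and Maf to Dynlrb2 (87.1). The 10 together held 98.1 per Mb (90.9 to 105.6), and their GC ran from 41.8% to 47.4%. Intervals of neighbours in this order overlapped.

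In some long gaps the regions stood at 1 end, which was seen by dividing each gap into 3 equal parts. Between Slc10a2 and Efnb2, an ephrin ligand of tissue boundaries, 77 regions lay in 3.36 Mb (22.9 per Mb, 18.1 to 28.7), and 72 of them were in the part next to Efnb2. The longest stretch without a region there was 880.4 kb. Between Nmbr and Cited2, a CBP/p300-binding regulator, 61 of 79 regions lay in the part next to Cited2. Epha7 to Map3k7, the gene of the kinase TAK1, held 105 regions, with 32, 11 and 62 in its 3 parts. Zeb2, a repressor of neural crest and mesenchyme, and the activin receptor gene Acvr2a flanked 88 regions, with 49, 9 and 30. These 4 gaps had 2.22 to 3.51 times the density of their GC class, more than Cdh11 to Cdh5.

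Bcl11a, a zinc finger factor, and Myc, the growth regulator, each stood at the fuller end of a gap. The Bcl11a gap held 96 regions (67.5 per Mb, 54.7 to 82.4), 2.39 times its GC class, with 54 in the part next to Bcl11a. Its largest region, the second sequence above, was 563.4 kb from the Bcl11a TSS and had 135 reads (113.2 to 159.8). The Myc to Gsdmc gap held 92 regions (56.7 per Mb, 45.7 to 69.6), 2.01 times its class, with 47 of them in the part next to Myc. The largest had 133 reads (111.4 to 157.6) at 149.9 kb from Myc, inside the long noncoding gene Pvt1.

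Of the 5 gaps with the most desert sequence, 3 held 10 regions or fewer. Pcdh20 to Pcdh9, between protocadherin genes, held 9 regions in 4.44 Mb (2.03 per Mb, 0.926 to 3.85), none with 10 reads. Olfm4 to Pcdh17 held 5 in 4.24 Mb (1.18 per Mb, 0.383 to 2.75), and Cntnap5b to Cdh20 held 10 in 4.18 Mb (2.39 per Mb, 1.15 to 4.40). These 3 had 0.232 to 0.454 times the density of their GC class. Tenm3 to Aga, the gap with the most desert sequence (4.57 Mb), held 40 regions (8.76 per Mb, 6.26 to 11.9), 1.96 times its GC class, with 37 of them in the part next to Tenm3, a teneurin of neuronal wiring, and Celf4 to Pik3c3 held 34 (7.87 per Mb), 0.471 times its class. Of 242 gaps with at least 1 Mb, 23 held no region, 16 of them on chromosome Y. Pcdh9 to 4921530L21Rik was the longest such gap on another chromosome, with 0 regions in 1.79 Mb, which allows up to 2.06 per Mb.

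Counted by nearest TSS, 2152 of the 3233 genes with desert sequence had at least 1 region. The 234 genes with at least 20 held 39.8% of the regions. Map3k7 had 74, Myc and Efnb2 72 each, Cdh11 71, Cited2 69, Tbl1xr1 67, Bcl11a 66, Maf and Adgrl2 61 each and Cdh5 60. Per Mb the order changed. Maf, a bZIP factor of lens and cartilage, led with 110.3 (84.4 to 141.7) among genes with at least 500 kb, followed by Cdh5 (107.5), Bcl11a (88.7), Lmcd1 (84.1), Zfat (81.6), Meis1 (75.0), Klf6 (71.5), Fam241a (70.7), Bmp2 (67.9) and Cdk5rap2 (67.4). Adgrl2 (30.7), Tbl1xr1 (33.7) and Cdh11 (34.0), with about 2 Mb of desert each, were nearer to the mean. Maf's regions were small, the largest with 36 reads, whereas those of Cdh11 reached 195.

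Gene lists differed by how their deserts were filled. Deserts nearest to 29 of 38 skeletal lineage factors held 528 regions, or 52.0 per Mb (47.7 to 56.6). Those nearest to 42 of 63 secreted signals and receptors held 39.7 (36.4 to 43.3), and those nearest to 27 of 43 craniofacial and dental mesenchyme factors 34.7 (31.1 to 38.6). All genes together held 21.02. Neural transcription factors held 15.8 (13.3 to 18.7), olfactory and vomeronasal receptors 11.1 (7.86 to 15.2) and neuronal adhesion and synapse genes 5.05 (4.53 to 5.61). Relative to the density that the GC of their own gaps gives, signals stood at 1.86, craniofacial factors at 1.45 and skeletal factors at 1.24. Neural factors stood at 0.649, neuronal adhesion genes at 0.587 and olfactory receptors at 0.466. Distance from the TSS and gap length, with which density also fell, were not held equal between lists. Desert sequence was 68.9 Mb for 62 adhesion genes, 13.5 Mb for 42 signals and 10.2 Mb for 29 skeletal factors. It was 9.60 Mb for 27 craniofacial, 8.68 Mb for 27 neural and 3.42 Mb for 39 olfactory genes. The part of these differences in the ratios was not tested. Among genes with at least 100 kb of desert sequence, 20 of 22 skeletal, 21 of 27 signal, 12 of 18 craniofacial, 5 of 18 neural, 4 of 54 adhesion and 1 of 12 olfactory genes exceeded 21.02 per Mb, as did 770 of 1765 genes in all (43.6%).

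**Figure D3:**
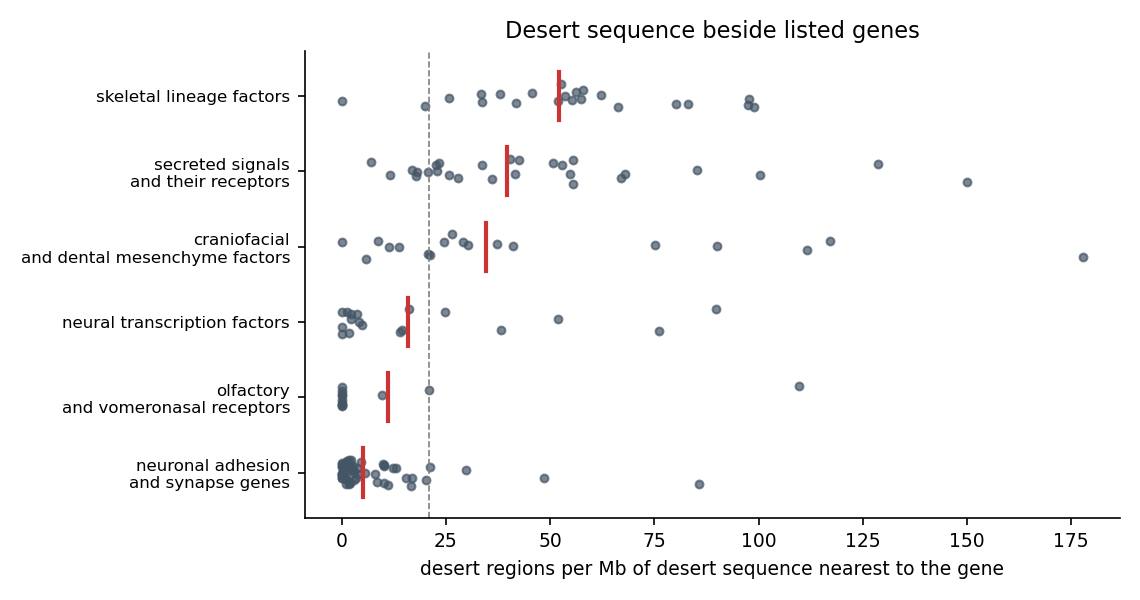
Desert regions per Mb of desert sequence nearest to each listed gene with at least 100 kb of it (points, spread vertically for clarity), with the pooled density of the list (red bar) and of all genes (dashed line, 21.02 per Mb). The 3 upper lists have most points to the right of the line and the 3 lower lists most to the left.

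Among craniofacial factors with at least 250 kb of desert sequence, a minimum added after the values were seen, Meis1, a homeobox cofactor, had 56 regions (75.0 per Mb, 56.7 to 97.5) and Tshz1, a zinc finger factor, 20 (41.2 per Mb, 25.1 to 63.6). Zfhx4 had 4 (5.78 per Mb) and Meis2 3 (8.66 per Mb), so the paralogs Meis1 and Meis2 lay at opposite ends of the list. Msx2, the homeobox factor of the tooth germ, has less desert sequence, 0.191 Mb, and was chosen after its value was seen: 34 regions, or 177.7 per Mb (123.1 to 248.4). Zfhx3, also under that minimum with 0.220 Mb, had 0 regions.

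Among skeletal factors Tbx3 had 45 regions (98.9 per Mb) and Runx1, a blood and cartilage factor, 24 (83.1). Irx2 (20.1) and Sox5 (25.8), a partner of Sox9 in cartilage, were lowest among those with at least 250 kb. Tbx15, under that minimum with 0.215 Mb, had 0 regions. Sox9, the master factor of cartilage, was chosen after its values were seen and had the most regions of the list, 59. Its sides differed: the gap from Sox9 to Slc39a11 held 53 regions in 0.363 Mb (146.2 per Mb, 109.5 to 191.2), with GC of 47.8%, and that from Kcnj2 to Sox9 held 25 in 1.52 Mb (16.5 per Mb, 10.7 to 24.3), with GC of 40.3%.

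Of the secreted signals, Bmper, a BMP-binding protein, had 35 regions (85.3 per Mb, 59.4 to 118.7) and the ligand Bmp2 41 (67.9 per Mb, 48.7 to 92.1). Edil3, an integrin ligand, had 9 (6.99 per Mb) and the guidance cue Sema3d 5 (11.5). Among the other lists, En1 had 20 regions (76.2 per Mb) and Sox2 33 (51.9), whereas Zic4, a factor of the neural tube, had 0. Of adhesion genes with at least 250 kb, Lrrn1 had the highest density with 21 regions (48.6 per Mb), although Flrt2 had more regions, 39 (12.98 per Mb), and Cdh12, Il1rapl1, Slitrk2 and Slitrk4 had 0. So did Slitrk1 with 2.12 Mb of desert sequence, Slitrk5 with 1.08, Lrp1b with 0.951 and Cntn4 with 0.492. At any length of desert sequence, 15 of the 62 adhesion genes had 0. The olfactory genes Olfr1507 and Olfr161 had 0 in 0.779 and 0.441 Mb. In that list 23 of 38 regions were nearest to Olfr1324, and without it the list held 4.67 per Mb.

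Of those 23 regions, 21 lay in Firre. Firre is a long noncoding gene on chromosome X, at 50555744 to 50635321 on the minus strand, known for an RNA with repeated domains that binds the nuclear matrix protein hnRNPU. It held 21 desert regions in 79.6 kb, or 263.9 per Mb, with 7 to 102 reads (median 30) and 779 in all (725.2 to 835.7). They were 7.87% of the desert regions on chromosome X and 21.8% of the reads in them, and without them the chromosome held 4.19 regions per Mb. No other stretch of desert regions less than 10 kb apart had as many. None of the 21 lay at the Firre start: the first was 12.2 kb and the last 74.1 kb into the gene. The 12 letters AGCTCTACTGCC, in capitals in the sequences above, were in 12 of the 21 regions and in 3 desert regions elsewhere, and one run of 30 letters was in 6 of the 21. The consensus of the zinc finger factor YY1 was in 7 of the 21 and in no desert region outside Firre, and GGGCGG, read by SP and KLF factors, was in 12 (5.50% of all desert regions). CTCF letters were in 0 of the 21, against 3.71% of all desert regions over their whole length, and TAATTA was in 0. Only exact matches were counted, so sites that differ from a consensus at any fixed letter were missed. Whether CTCF binds these regions was not tested. Reads of near-identical repeats may be placed in the wrong copy, so single values within Firre are uncertain.

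**Figure D4:**
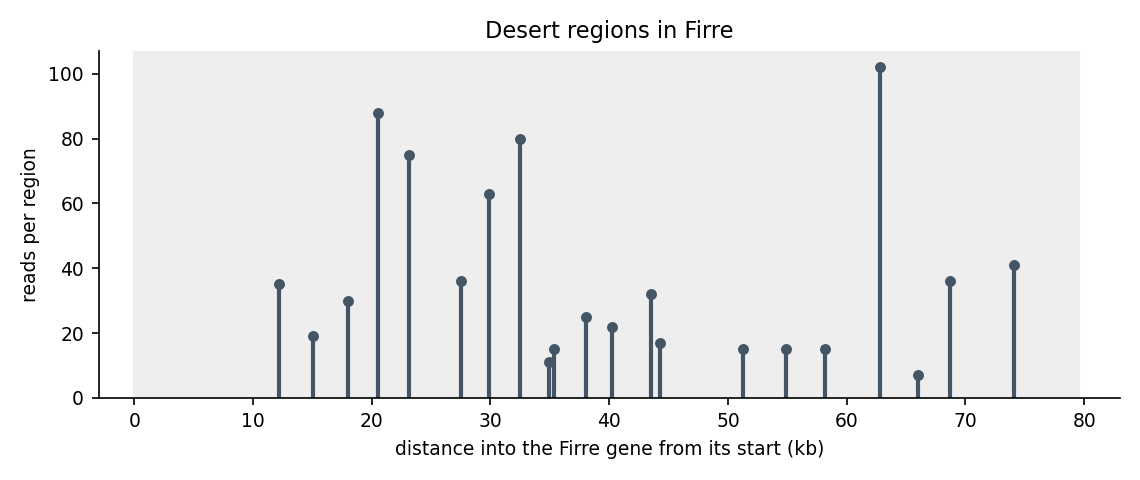
Reads of each of the 21 desert regions in Firre (vertical lines with a point) by distance in kb from the gene's start; the grey area is the gene body. The regions run from 12.2 to 74.1 kb, the largest having 102 reads.

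Other long noncoding genes also held desert regions. Bodies of long noncoding genes held 3035 desert regions (16.7%), or 37.7 per Mb (36.4 to 39.1). Within 1 kb of a long noncoding TSS there were 629 (3.46%), or 102.4 per Mb (94.5 to 110.7), against 20.4 in the rest of the desert sequence. The share at such a TSS was 3.27% among regions with 0 reads, 3.70% at 10 to 19 reads and 19.3% at 100 reads or more, mitochondrial matches left out. The bodies with the most regions were chosen after their values were seen. 2610307P16Rik on chromosome 13 held 48, of which 36 were nearest to Sox4, and Gm31135 on chromosome 8 held 48, all nearest to Efnb2. Pvt1 held 32, all nearest to Myc, and 2610035D17Rik on chromosome 11 held 26, of which 18 were nearest to Sox9 and 8 to Slc39a11. 6330411D24Rik on chromosome 4 also held 26, of which 18 were nearest to Prdm2 and 8 to Kazn, and Gm41335 on chromosome 15 held 25, all nearest to Gsdmc. Of 9274 clusters linked at 10 kb, the 5 largest included the one in Firre and 2 between Sox9 and Slc39a11. The others were 1 of 18 regions nearest to Arglu1 (171 reads) and 1 of 16 nearest to Reep3 (560 reads). The clusters between Sox9 and Slc39a11 held 20 regions within 96.2 kb, at 164.6 to 260.7 kb from the Sox9 TSS, and 15 within 45.0 kb, at 382.8 to 427.9 kb.

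The largest single regions were mostly not typical of deserts. The 3 with the most reads matched the mitochondrial genome: 10649 reads on chromosome 4 at 93.6% identity, 1935 on chromosome 4 at 80.4% and 1043 on chromosome 3 at 80.2%. They held 6.65% of all desert reads, and without such matches in any class the desert share of reads was 8.47%. The fourth, on chromosome 13 from 107890003 to 107891571 with 478 reads (436.1 to 522.8), lay at the start of Zswim6, which is not typed protein-coding in the annotation used but has a messenger RNA start there in RefSeq. On RefSeq genes, 17237 of the 18171 regions (94.9%) were still in deserts. The fifth and sixth, with 465 and 457 reads on chromosome 4, lay in the pseudogenes Gm12895 and Gm12896 and were identical copies of each other. The next 2 and the tenth, with 452, 431 and 262 reads, lay at the starts of the noncoding genes Gm26901, Gm20732 and Gm6420 and were CpG-rich. The ninth was of another kind. It lay on chromosome 14 from 17358531 to 17358849, 302.2 kb from the TSS of the thyroid hormone receptor gene Thrb, with 418 reads (378.9 to 460.1) in 319 bases. Its GC was 38.2%, and no near-identical copy of at least 80% of its length was found.

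Letters of several factors were commoner in desert regions than in flanks 2 kb away. In the central 200 bases, TAATTA was in 12.6% of desert regions (12.2% to 13.1%) and 6.94% of flanks (6.68% to 7.21%), a ratio of 1.82. TGTGGTT, the letters of RUNX factors of bone and cartilage, gave 7.47% and 4.39% (1.70). CAGCTG, an E-box of basic helix-loop-helix factors, gave 13.7% and 7.44% (1.84), and TGTTTAC, read by forkhead factors, 5.27% and 3.03% (1.74). The consensus of the insulator protein CTCF gave 2.77% and 0.840% (3.30). TGANTCA, of AP-1, gave 7.70% and 6.32% (1.22), GGAATG, of TEAD, 14.1% and 11.1% (1.27), and AGATAAG, of GATA, 2.09% and 3.13% (0.669). Of 24 consensus sequences searched, 11 had intervals above those of the flanks, 3 below and 10 overlapping them. Besides those named, SOX (ACAAAG, 1.07), CEBP (TTGCNNAA, 1.27), SP and KLF (GGGCGG, 2.45) and glucocorticoid receptor (1.89) letters were above, and CATATG, an E-box of Twist factors (0.570), and CCAAT, of NFY (0.867), were below. Each region's flanks share its neighbourhood, and median GC was 46.0% in the windows and 42.5% in the flanks. Of the 8 palindromes of 6 letters made of A and T alone, a comparison added after the values were seen, TAATTA exceeded its flanks, and the other 7 had ratios of 0.262 to 0.781. The excess of TAATTA over flanks was not particular to deserts. Its ratio was 1.80 in intergenic regions near genes and 1.98 in gene bodies. With at least 10 reads it was 2.54 in deserts, 2.26 in intergenic regions near genes and 2.70 in gene bodies.

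TAATTA also rose with the reads of a region. It was in 8.32% of desert regions with under 5 reads (7.71% to 8.95%), 13.7% with 5 to 9, 16.7% with 10 to 19, 19.1% with 20 to 49 (17.4% to 20.98%) and 16.6% with 50 or more (13.6% to 20.1%). TGTGGTT rose from 6.01% (5.49% to 6.56%) with under 5 reads to 9.12% (7.86% to 10.5%) with 20 to 49. AP-1 letters went from 8.005% (7.41% to 8.63%) with under 5 reads to 7.01% (5.90% to 8.25%) with 20 to 49 and 5.10% (3.39% to 7.34%) with 50 or more, the last interval lying below the first.

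**Figure D5:**
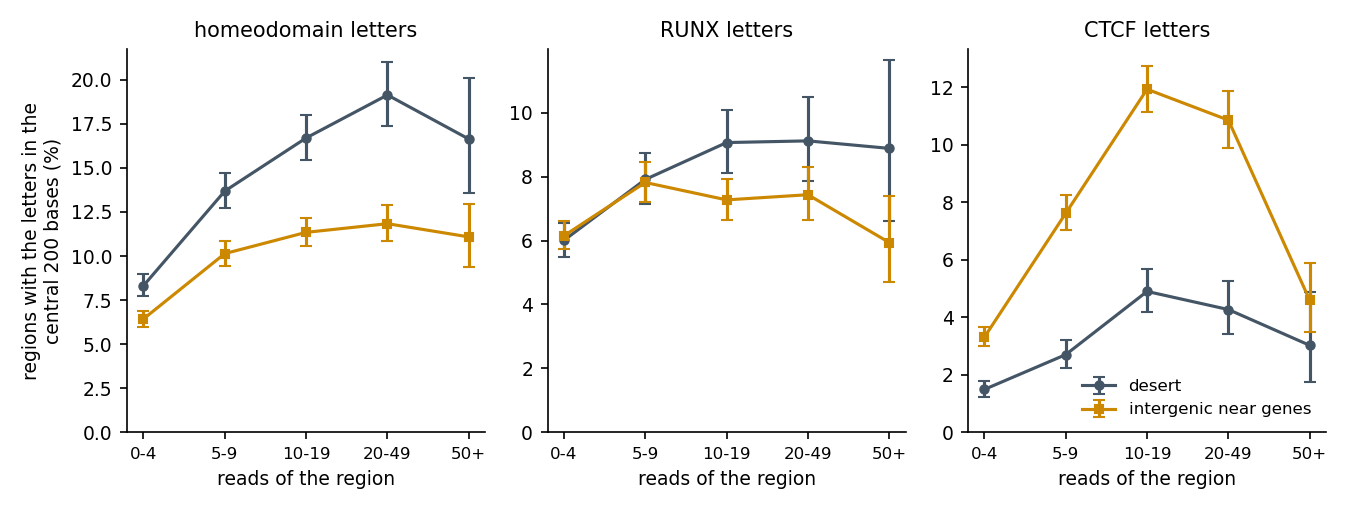
Share of regions in percent whose central 200 bases hold the homeodomain (TAATTA), RUNX and CTCF letters, by reads of the region, in desert regions (circles) and intergenic regions within 100 kb of a TSS (squares), with exact 95% binomial intervals. TAATTA is commoner in desert regions in every bin, and CTCF letters are rarer in the 4 bins under 50 reads. Flanks of desert regions also hold more TAATTA than those of the intergenic regions (6.94% against 5.12%).

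CTCF letters were rarer in deserts than in intergenic regions near genes and in gene bodies, but not than at promoters. They were in 2.77% of desert regions, 7.17% of intergenic regions near genes and 5.08% of gene body regions. At promoters they were in 2.12% (1.94% to 2.30%). The flanks of these 4 classes differed too, with CTCF letters in 0.840%, 1.66%, 1.35% and 1.82% in the same order. Ratios to flanks were 3.30 in deserts, 4.32 in intergenic regions near genes, 3.76 in gene bodies and 1.17 at promoters. SP and KLF letters were in 3.77% (3.50% to 4.06%) of desert regions and 8.31% of intergenic regions near genes. With 10 to 19 reads CTCF letters were in 4.90% of desert regions (4.20% to 5.68%) and 11.9% of intergenic regions near genes (11.2% to 12.7%). Windows with 40 to 50% GC and at least 10 reads, a restriction added after the values were seen, gave 4.21% (3.54% to 4.98%) in deserts, 10.5% (9.60% to 11.4%) in intergenic regions near genes and 6.56% (6.00% to 7.16%) in gene bodies, at median reads of 17, 17 and 16. TAATTA in the same windows was in 18.03% (16.7% to 19.4%) of desert regions, 15.5% (14.5% to 16.6%) of intergenic regions near genes and 18.2% (17.3% to 19.1%) of gene body regions, so desert and gene body regions overlapped. Among the named gaps, TAATTA was in 21 of the 96 Bcl11a to 5730522E02Rik windows and in 0 of the 64 Meis1 to Spred2 windows. Over all desert regions the share was 12.6%, and both gaps were chosen after their values were seen. A match to these letters is a description of sequence, and binding was not measured.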

How the data were processed

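ATAC-seq regions of 1 library of wild-type incisor dental mesenchyme, deposited as 4 lanes under 1 name, were analysed. Per the labels' protocols, BWA-MEM served for alignment to mm10, MACS2 for peaks and HOMER for annotation. STAR 2.6.1d and Partek are listed by the submitters' processing notes with no role. The sources used do not say whether duplicates or mitochondrial reads were removed, whether reads were shifted for the transposase, or on which libraries regions were called. Duplicates left in would raise counts, and regions called elsewhere would add regions with 0 reads.

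The authors deposited a table of CPM per region, in which each value is 1 read added and scaled. Within 0.01 read, 99.93% of the values were whole multiples of the CPM of 1 read, with 84 exceptions. Subtracting the added read from each multiple gave 2297894 reads in 121574 regions. A shorter table of expected counts that the authors deposited, with 16382 regions, differed by at most 0.00155 read. The table's 1 other value column, which matches no sample, was not used. The design assumed a value per lane; it was kept as written, with the lanes as 1 library.

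Regions were placed by midpoint on GENCODE M21 basic genes, and densities used known bases of GRCm38. Mitochondrial matches and copies (identity at least 90% over 80% of the length) were found with blastn 2.17.0. Python 3.11.15, pandas 2.3.3 and scipy 1.17.1 were used. The labelling and densities were tested on simulated regions. Named items were the gaps and genes with the most regions, with the highest and lowest density and with the most desert sequence, up to 4 genes of each list, and the 10 largest regions; exceptions are said in the text. Some items that these rules take are not reported here. Members, lists and motifs were chosen with earlier results of these data known. Other distances, annotations, read minimums and lengths were tried.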

Additional observations from a re-analysis of the deposited data

How the results depend on the processing

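Membership depends on the distance rule and the annotation. Over 50 kb from a TSS there were 26867 regions, 24.8 per Mb with 13.4% of reads, and over 200 kb 9937, 16.2 per Mb with 4.92%. With long noncoding genes counted as genes 7336 were left, 14.5 per Mb with 3.85% of reads. At least 5 reads left 10463 regions (12.1 per Mb, 8.59% of reads), and at least 10 left 5837 (6.75 per Mb, 7.85%). Density was 17.7 per Mb with abutting regions merged and 19.5 with runs of N counted. Without mitochondrial matches the share of reads was 8.47%. Alternatives chosen after seeing the data gave 21.3 per Mb and 8.71% on RefSeq genes, 22.6 per Mb without chromosome Y, and 23.99 per Mb and 8.95% without X and Y. Protein-coding transcripts alone, or whole regions in desert, stayed within the intervals.

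The 10 densest gaps stood at 4.67 times the mean density, 5.05 per Mb of whole gap and 4.07 with at least 10 reads, a setting in which 5 of the 10 remained among the densest; by reads per Mb 4 did. Of the 10 genes with the most regions, 6 remained when both flanking genes were counted and 6 with at least 10 reads. The TAATTA ratio of 1.82 was 1.73 over whole regions and 2.54 with at least 10 reads. The olfactory list reversed with at least 10 reads, from 0.528 to 1.13 times all genes, and stood at 0.222 without Olfr1324, so its value rests on Firre. No other list changed sides. No paired analysis was possible because there is 1 group and the 4 lanes share 1 column; leaving out a lane could not be run for the same reason. With 1 library and a median of 6 reads, single small regions are limited by depth.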
